A study of Homo sapiens with 58 samples.

Results

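The HuR CLIP-seq libraries described here are the 17 input libraries of the series, of 58 libraries in all. They were made from whole lysates of APEX cell lines by HuR immunoprecipitation alone, with no streptavidin capture, and were chosen by that label. They comprise 8 mock and 9 arsenite libraries and address how arsenite changes the RNA bound to HuR in the cell as a whole. All came from Huh-7.5, an established human hepatocellular carcinoma line. APEX is an ascorbate peroxidase that biotinylates molecules near it, and it was carried as APEX-NLS (nuclear), APEX-NES (cytoplasmic) or APEX-G3BP1 (fused to a stress granule protein). The APEX-NLS and APEX-NES lines had 2 mock and 2 arsenite inputs each, and the APEX-G3BP1 line had 4 mock and 5 arsenite inputs. Arsenite cells received 0.5 mM sodium arsenite for 45 min. Every input, mock included, also received 0.5 mM biotin phenol for 30 min and 1 mM hydrogen peroxide for 1 min, so that the contrast is arsenite on top of the peroxide reaction. Cells were crosslinked with 254 nm UV light at 400 and 200 mJ/cm2, and HuR was precipitated with antibody 3A2. The promoter of the APEX constructs and whether each line is a single clone are not given in the sources used here.

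HuR, encoded by ELAVL1, is a widely expressed RNA-binding protein of the ELAV family that binds U-rich and AU-rich sequence in introns and 3'UTRs. It is mostly nuclear in resting cells, moves between nucleus and cytoplasm, and can stabilise short-lived mRNAs of stress and growth genes. Arsenite causes oxidative stress, induces heat shock and immediate early genes, and halts translation initiation, whereupon mRNAs gather in stress granules that contain G3BP1 and HuR.

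The libraries fall into 3 sets named by the prefix of their descriptions. JL0361 holds G3BP mock 1 and 2 and G3BP arsenite 1 to 3. JL0388 holds NLS and NES replicate 1, G3BP mock 3 and G3BP arsenite 4. JL1024 holds NLS and NES replicate 2, G3BP mock 4 and G3BP arsenite 5, and its descriptions end in "All", which may mean pooled runs. Line and set together form 7 strata, each with at least 1 mock and 1 arsenite library. Recovered tags in peaks ranged from 1353 to 484305 per library, of library totals between 17051 and 2622677, and 3 inputs (G3BP mock 1, G3BP mock 4 and G3BP arsenite 1) held fewer than 10000. Nothing in the labels says that replicates came from separate cultures, so p-values measure the spread between these libraries, which may be technical. Of 10 hepatocyte markers, 8 had a tag, and their summed level was 89.0 to 584 CPM (counts scaled to the library total, the unit of the deposited table) in mock and 171 to 638 CPM in arsenite libraries. Of 10 markers of blood, endothelial, stromal and glial cells, 4 had a tag. Their sum was 0 to 2.61 CPM in mock (median 0) and 0 to 117 CPM in arsenite libraries (median 2.18). The highest value was that of PTPRC, which had 18 tags over all inputs. The neuronal ELAV genes together had 3 tags, all of ELAVL4. In these bulk libraries more RNA of a gene and more HuR bound per RNA cannot be told apart, since no RNA level of the same cells was used.

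Arsenite moved HuR tags towards 3'UTRs in each line and each set. In mock inputs 3'UTRs held 16.3% ± 2.55 (SD, n = 8) of the tags in peaks, from 11.6% to 19.7%, and in arsenite inputs 25% ± 5.11 (SD, n = 9), from 18.1% to 33.1%. The groups overlap, and the sets differ: the lowest arsenite values, 18.1% (NLS) and 19.5% (NES), are both from JL1024, where the matching mock libraries stood at 11.6% and 15.4%. In G3BP cells of JL0361 the mean share was 19.3% in mock and 30.8% in arsenite libraries. Within strata the arsenite excess was 8.18 percentage points, and it was positive in 7 of 7 strata, from 4.03 to 11.5 points (two-sided exact permutation test within strata, p = 0.001563, the smallest that 640 assignments allow; 0.01562 after Benjamini-Hochberg adjustment over 10 classes). Without G3BP arsenite replicate 2 the excess in 3'UTR share was 7.73 points and without replicate 3 it was 7.81 points, each with an adjusted exact permutation p of 0.05208, the smallest that the remaining assignments allow, so the threshold could not be passed there.

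**Figure D1:**
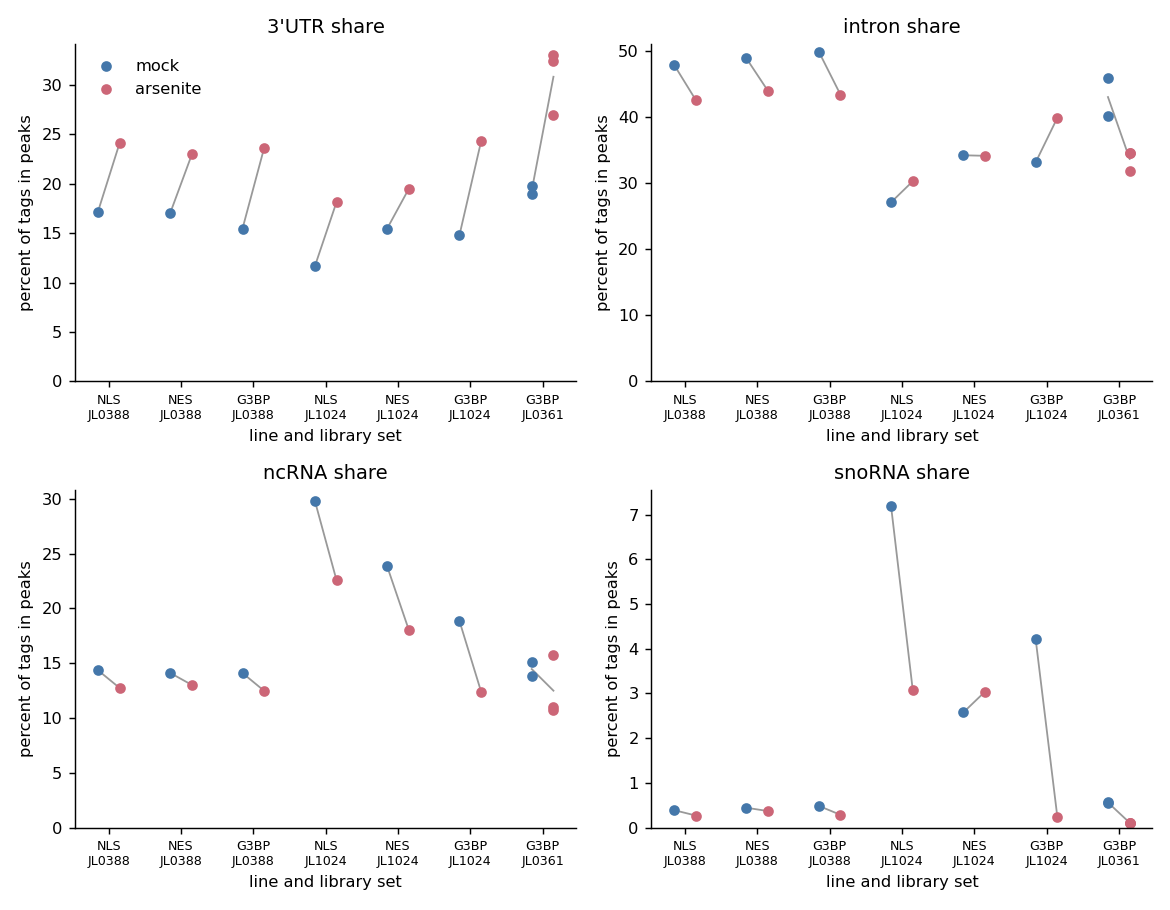
Shares (percent) of an input library's peak tags in 3'UTR, intron, ncRNA and snoRNA peaks (vertical axes, from 0), by line and library set (horizontal axes). Each point is 1 library, mock in blue and arsenite in red, and grey lines join the means; the 3'UTR share is higher with arsenite in 7 of 7 strata and the ncRNA share in 0 of 7, while the intron share is higher in 2 of the 7.

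The other classes moved less. Introns, where HuR binds pre-mRNA, held 41.0% ± 8.59 (SD, n = 8) of the tags in mock and 37.3% ± 5.25 (SD, n = 9) in arsenite inputs, or -3.51 points between them within strata (p = 0.0922 by exact permutation, 0.184 after adjustment). The direction differed by set: the intron share differed by -9.38 points within JL0361 and -5.61 points within JL0388, and by 3.29 points within JL1024. Non-coding RNA held 18% ± 5.91 (SD, n = 8) in mock and 14.3% ± 3.86 (SD, n = 9) in arsenite inputs. That class was lower with arsenite in 7 of 7 strata, by 1.10 to 7.25 points, yet did not pass (exact permutation p = 0.0156, adjusted 0.0781). Most of it is lncRNA, at 15.3% and 12.7% of tags. The snoRNA share was 2.05% ± 2.5 (SD, n = 8) in mock and 0.846% ± 1.26 (SD, n = 9) in arsenite inputs (adjusted exact permutation p = 0.129). It was lower with arsenite in 6 of 7 strata, among them all 4 outside JL1024, and the highest values were in JL1024, with NLS mock 2 at 7.19% and G3BP mock 4 at 4.21%. Peaks in the 10 kb downstream of genes were higher in 7 of 7 strata, by 0.180 to 0.483 points, with an adjusted exact permutation p of 0.0781. Shares of 5'UTR, coding, transposable element, unannotated and other peaks had adjusted p-values of 0.366 or more.

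Shares sum to 100, so a higher share of one class lowers the rest. On the scale of the library total, where they do not, 3'UTR tags were 1.75 points higher with arsenite (adjusted exact permutation p = 0.0156) and intron tags differed by 0.134 points (adjusted p = 0.800). The percentage of the total that lay in any peak was 13.9% ± 5.27 (SD, n = 8) in mock and 16.2% ± 5.01 (SD, n = 9) in arsenite inputs, a difference of 2.19 points that was positive in 6 of 7 strata (exact permutation p = 0.0156).

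The log2 ratio of 3'UTR to intron tags does not depend on the other classes. It was -1.32 ± 0.23 (SD, n = 8) in mock inputs and -0.59 ± 0.35 (SD, n = 9) in arsenite inputs, from -1.69 to -1.02 and from -0.94 to -0.06. These groups did not overlap, and the arsenite ratio was the higher in 7 of 7 strata, by 0.34 to 1.02 (difference 0.69; exact permutation p = 0.001563, the smallest possible). Within the 6300 genes that had both kinds of peak the difference was 0.68 (exact permutation p = 0.001563). The excess was 1.02 within JL0361, 0.69 within JL0388 and 0.42 within JL1024.

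Single peaks were first tested on log2 CPM. Limma, with line and set as covariates, called 0 of 17091 peaks (0%) at an adjusted p of 0.05, while 1630 had an unadjusted p under 0.05, 1508 of them higher with arsenite. On the recovered whole tags with the deposited totals, edgeR's quasi-likelihood test called 239 peaks higher (1.40%) and 37 lower (0.216%). With TMM scaling edgeR called 0 peaks and DESeq2 called 0, with 1198 and 493 at an unadjusted p under 0.05. Scaled to the tags in peaks, edgeR called 95 higher and 30 lower. The number also depended on single libraries: the 276 calls became 12 without NLS arsenite 1, 18 without G3BP mock 3, 64 without NES mock 1, 77 without NLS mock 1, 86 without NES arsenite 1, 87 without NLS mock 2, 96 without G3BP mock 2, 114 without G3BP arsenite 2, 136 without G3BP arsenite 3 and 148 without G3BP mock 4. Of the 5234 tested peaks in 3'UTRs, edgeR with deposited totals called 170 higher and 1 lower. The 147 peaks in 5'UTRs gave 10 higher and 0 lower, with 35 and 7 at an unadjusted p under 0.05. Introns, with 5964 tested peaks, gave 19 higher and 15 lower, and the 2400 ncRNA peaks gave 8 higher and 8 lower. Thus 3'UTR peaks made up 170 of the 239 peaks called higher.

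The letters of 5 of the peaks called higher could be read, because they lie inside promoter windows of RefSeq (GRCh38.p14) of a gene or its antisense partner; they are shown since HuR is known for U-rich sites. Each is the 20-nt peak on its own strand, 5′ to 3′, with runs of at least 3 T in capitals, and positions assume that the deposited starts count from 0, which the table does not state. Of the 46 tested peaks that lie in such a window, 22 (47.8%) contained TTT on the peak's strand, against 2 of these 5.
PSMB4 5'UTR, chr1:151399571-151399590, plus strand: ctgctaccgtgactaagatg
SLC38A2 5'UTR, chr12:46372552-46372571, minus strand: tgaTTTgtaTTTgactgaga
CEBPB 3'UTR, chr20:50192251-50192270, plus strand: gtccaaaccaaccgcacatg
C6orf62 5'UTR, chr6:24719142-24719161, minus strand: TTTTTTggaaagcaaggatc
C6orf62 5'UTR, chr6:24719329-24719348, minus strand: caccaagtgtaatcaataac
The SLC38A2 peak, in the mRNA of an amino acid transporter, had 0 to 22.2 CPM in mock (median 2.56) and 0 to 40.6 CPM in arsenite inputs (median 27.2), a difference of 1.54 on the log2 scale (edgeR adjusted p = 0.0418). The first C6orf62 peak, which holds the longest T run, had medians of 4.84 and 14.8 CPM and a log2 difference of 2.06 (edgeR adjusted p = 0.0278). For PSMB4, which encodes a proteasome subunit, the medians were 0.191 and 3.62 CPM and the log2 difference was 2.52 (edgeR adjusted p = 0.0264). All 5 ranges overlapped between the groups, and limma's adjusted p was 0.501 or more for each.

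Because 3'UTR and intron tags went apart, the peaks of a gene were also summed by region, a sum chosen after the shares had been seen. In edgeR, 910 of 3803 tested 3'UTR sums were called higher with arsenite (23.9%) and 7 lower (0.184%). The median log2 difference of all 3803 was 0.66, or 1.58-fold, and 3326 (87.5%) were positive. Intron sums gave 27 higher (0.542%) and 11 lower (0.221%) of 4982, with a median log2 difference of -0.01 and 2440 (49.0%) positive. Limma called 0 of 3803 3'UTR sums and 0 of 4982 intron sums (0% each), with 702 and 259 at an unadjusted p under 0.05; of the 702, 695 were higher. With TMM factors edgeR called 264 3'UTR sums higher and 8 lower, and 13 intron sums higher and 45 lower. The count of 917 3'UTR calls became 385 without NLS arsenite 1 and 547 without G3BP mock 3. Within sets, edgeR called 591 higher and 5 lower in JL0388, 11 higher and 0 lower in JL0361, and 0 in JL1024, where 137 were higher and 13 lower at an unadjusted p under 0.05.

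**Figure D2:**
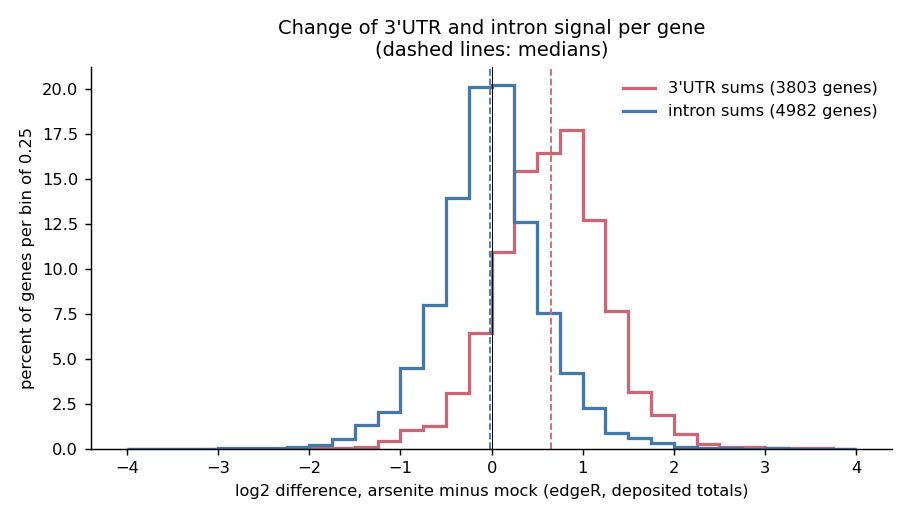
Distribution over genes of the log2 difference between arsenite and mock inputs (horizontal axis; edgeR with deposited totals) for 3'UTR sums (red, 3803 genes) and intron sums (blue, 4982 genes), as percent of genes per bin of 0.25 (vertical axis). Dashed lines mark the medians, 0.66 for 3'UTR sums and -0.01 for intron sums.

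The same genes showed the split. Of 2632 genes tested in both regions, 2152 (81.8%) had a higher log2 difference in the 3'UTR than in the intron, with a median gap of 0.66. Among their 653 genes with a 3'UTR sum called higher, 9 also had an intron sum called higher and 1 an intron sum called lower. HNRNPK, TNRC6B and MDM2, described below, were called in the 3'UTR with intron differences of 0.19, 0.25 and -0.03 on the log2 scale, none of them called. The excess was not carried by a few mRNAs: of 7421 genes with a 3'UTR tag, 5350 gained a share of the tags and 2071 lost, and the 10 genes that gained most made up 0.601 of 7.52 points (7.99%). ACTB, which encodes beta-actin, gained most with 0.169 points, followed by HNRNPH1 with 0.0665 and MARCKS with 0.0590 points. By number of 3'UTR peaks, 18.1% of genes with 1 peak were called higher, 16.8% with 2 to 4, 20.9% with 5 to 9, 33.8% with 10 to 19 and 48.0% with 20 or more. The median log2 difference lay between 0.60 and 0.74 in these groups, so it did not follow the share called.

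Summed over all regions of a gene, fewer differences were called than in 3'UTR sums. Limma called 0 of 7470 gene sums (0%), with 666 at an unadjusted p under 0.05. EdgeR with deposited totals called 351 higher (4.70%) and 68 lower (0.910%), and with TMM 101 higher and 78 lower. The median log2 difference of all gene sums was 0.39 in limma, 0.20 in edgeR with deposited totals, 0.08 with tags in peaks and 0.03 with TMM, so that gene sums are best read against that shift. EdgeR calls numbered 126 without NLS arsenite 1, 185 without G3BP mock 3 and 279 without G3BP mock 2.

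Among the lists described here, immediate early and AU-rich genes had the highest median 3'UTR difference. Of 10 tested 3'UTR sums in this list, 8 were called higher by edgeR and 0 lower, against 23.9% of all 3'UTR sums called higher, with a list median of 2.00 on the log2 scale against 0.66 for all 3'UTR sums. With TMM 6 of the list were called higher, and within JL0388 5. DUSP1, a phosphatase that switches off MAP kinases, had 0 CPM in 5 of the 8 mock inputs, and 2.61 (G3BP 3), 3.60 (NES 1) and 4.32 CPM (NLS 1) in the other 3. In arsenite inputs it had 40.1 CPM (NLS 1), 24.7 (NES 1), and 24.4, 27.3 and 25.3 (G3BP 2, 3 and 4), with 2.24 CPM in NLS 2 and 0 in NES 2, G3BP 1 and G3BP 5. All 5 arsenite libraries with more than 10 CPM are from JL0361 and JL0388. The groups overlapped through the arsenite values of JL1024, 0 to 2.24 CPM, and the 0 of the shallow G3BP arsenite 1. With a tag in 3 of the 8 mock inputs, DUSP1 reached the 8 inputs needed for testing mainly through the arsenite group. The log2 difference was 3.21 (edgeR adjusted p = 9.84e-08; limma 1.96, adjusted 0.196).

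JUND, a subunit of the AP-1 transcription factor, was covered in every arsenite input. Its 3'UTR sum was 0 to 33.1 CPM in mock (median 10.4) and 22.1 to 197 CPM in arsenite inputs (median 48.4), and the 3 arsenite libraries of JL0361 stood apart at 176 to 197 CPM, the first of them on 3 tags. It was higher in 7 of 7 strata, by 2.13 on the log2 scale (edgeR adjusted p = 5.12e-07). JUN, its partner in AP-1, had medians of 1.19 and 6.03 CPM, 0 to 4.79 CPM in mock and 0 to 34.3 CPM in arsenite inputs, and a log2 difference of 2.87 (edgeR adjusted p = 3.58e-06). IER2 (3.03), BTG2 (2.18), EGR1 (1.86), MCL1 (1.36) and KLF6 (1.33) were the other members called. They rest on few tags, 51 for IER2, 32 for BTG2 and 29 for EGR1, and of the 8 the calls of BTG2, EGR1, IER2 and KLF6 were lost in 2 to 7 of the 17 fits that left out 1 library, NLS arsenite 1 among them each time. Over those fits IER2 ranged from 1.52 to 3.66, EGR1 from 1.34 to 2.48 and BTG2 from 1.65 to 2.52. Within JL1024 the IER2 difference was -1.70 and within JL0361 that of MCL1 was -0.33, neither called.

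**Figure D3:**
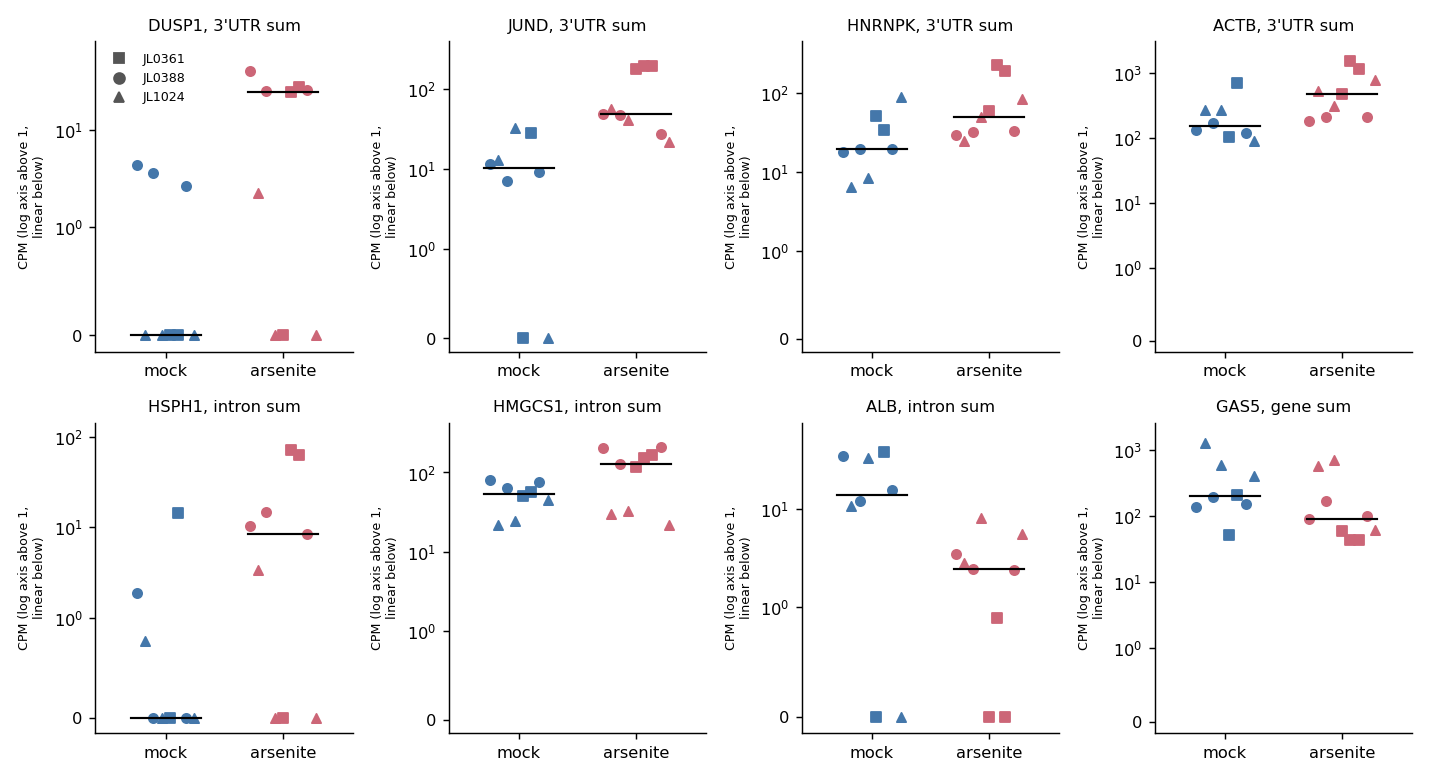
CPM of 8 sums in the 8 mock (blue) and 9 arsenite (red) inputs (vertical axes, logarithmic above 1 CPM and linear below); squares are JL0361, circles JL0388, triangles JL1024, and bars are group medians. DUSP1, JUND, HNRNPK and ACTB 3'UTR sums and HSPH1 and HMGCS1 intron sums have higher arsenite medians; the ALB intron sum and the GAS5 gene sum have lower ones, and JL1024 holds the highest GAS5 values.

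Among mRNAs known as HuR targets, 5 of 15 tested 3'UTR sums were called higher and 0 lower, with a median of 0.81. VEGFA, an angiogenic factor, had medians of 0.191 CPM in mock and 7.24 CPM in arsenite inputs and a log2 difference of 1.57 (edgeR adjusted p = 0.00252). MDM2, the ubiquitin ligase of p53, had 0 to 14.8 CPM in mock (median 5.97) and 0 to 117 CPM in arsenite inputs (median 26.6), a difference of 1.46 (edgeR adjusted p = 0.00107). CCND1 (cyclin D1) and CTNNB1 (beta-catenin) differed by 1.23 and 0.80, and MCL1 is counted here too. The share called, 5 of 15, was near the 23.9% of all 3'UTR sums. ELAVL1 itself, whose mRNA HuR also binds, was not called: its 3'UTR sum had medians of 13 and 29.0 CPM, positive in 5 of 7 strata, with a log2 difference of 0.56 (edgeR adjusted p = 0.115; limma 1.02, adjusted 0.447).

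Factors that bind AU-rich elements or drive mRNA decay had 8 of 14 3'UTR sums called higher and 0 lower (median 0.96), against 23.9% called higher and a median of 0.66 over all 3'UTR sums. ZFP36L1 and ZFP36L2, which recruit deadenylases, differed by 1.09 and 0.93, the silencing factor TNRC6B by 1.12, the argonaute AGO2 by 0.96, the decapping enzyme DCP2 by 1.07 and the deadenylase CNOT7 by 1.07. TNRC6B had 0 to 84.0 CPM in mock and 51.6 to 235 CPM in arsenite inputs, higher in 7 of 7 strata (edgeR adjusted p = 0.00112). With TMM 0 of the 8 3'UTR calls were left, and 0 of the 5 calls among gene sums.

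Splicing regulators of the HNRNP and SRSF families had 12 of 34 3'UTR sums called higher, against 23.9% of all, and 0 lower (median 0.68, close to the median of all), and 4 higher with TMM. HNRNPK, which binds C-rich RNA, had 6.48 to 89.0 CPM in mock (median 19.4) and 24.7 to 223 CPM in arsenite inputs (median 48.9). G3BP arsenite 2 and 3 of JL0361 stood apart, at 223 and 187 CPM, against 29.2, 32.2 and 32.6 CPM in the 3 arsenite libraries of JL0388. Its log2 difference was 1.42 (edgeR adjusted p = 0.00111). HNRNPH2 (1.5), SRSF9 (1.55) and TRA2B (1.63) also kept their calls in each of the 17 fits that left out 1 library, TRA2B with values from 1.36 to 3.09. HNRNPH1 and HNRNPU, far more covered, differed by 0.79 and 0.73, and HNRNPU lost its call in 9 of those fits. HNRNPC was not called (0.63, edgeR adjusted p = 0.109).

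Translation factors had 9 of 20 3'UTR sums called higher and 0 lower (median 0.84), against 23.9% of all. The 9 calls became 4 scaled to tags in peaks and 3 with TMM. EIF4G1, the scaffold of the cap-binding complex, differed by 2.96 on 28 tags (edgeR adjusted p = 0.00110), with a tag in 2 mock and 6 arsenite inputs, the fewest that enter the test. It thus entered mainly through the arsenite group, where it was higher. EIF4G2 (1.48), EIF1 (1.47) and EIF3A (1.26) followed. EIF2S3 and EIF4G3, at 0.74 and 0.88, lost their calls in 8 and 10 of the fits without 1 library. EIF4A2, whose introns host snoRNAs, went the other way as a gene sum, at -1.12 (edgeR adjusted p = 0.00381), while its 3'UTR sum (-0.26) was not called.

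Stress granule proteins had 3 of 16 3'UTR sums called higher and 0 lower (median 0.66). G3BP1, which nucleates stress granules, had 11.4 to 66.7 CPM in mock (median 47.6) and 0 to 115 CPM in arsenite inputs (median 81.6), higher in 7 of 7 strata, by 1.05 (edgeR adjusted p = 0.00273). The RNA helicase DDX3X differed by 1.16 and NUFIP2 by 0.88. The NUFIP2 call was lost in 2 of the fits that left out 1 library, and that of DDX3X in 0. In limma NUFIP2 differed by 0.07. ATXN2 was not called (0.73, edgeR adjusted p = 0.158). The share called, 3 of 16, was near the 23.9% of all 3'UTR sums, and 1 was called with TMM.

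Heat shock and chaperone genes had calls in introns as well as 3'UTRs. HSPH1, a disaggregase cofactor of the HSP110 family, had an intron sum of 0 to 14.2 CPM in mock (median 0) and 0 to 72.1 CPM in arsenite inputs (median 8.44). G3BP arsenite 2 and 3 stood highest at 72.1 and 63.0 CPM, and 5 of 7 strata were higher and 0 lower. With a mock median of 0, HSPH1 reached the 8 inputs needed for testing mainly through the arsenite group. The log2 difference was 2.71 (edgeR adjusted p = 0.000143), and the call held in each of the 17 fits without 1 library. DNAJA1, an HSP40 co-chaperone, had intron medians of 0.653 and 9.89 CPM and a difference of 2.21 (edgeR adjusted p = 0.00702), a call lost in 4 of those fits, while its 3'UTR sum was not called (1.2, edgeR adjusted p = 0.0744). These were 2 of 9 tested intron sums, with 0 lower, against 0.542% of all intron sums called higher. Of 9 tested 3'UTR sums, 3 were called higher, against 23.9% of all: the mitochondrial chaperone HSPA9 (1.37), the inducible HSP70 gene HSPA1B (1.26) and HSP90AA1 (0.82). HSPA1B has a near-identical copy, HSPA1A, and how tags were split between them is not given in the sources used here. HSP90AA1 lost its call in 11 of the fits without 1 library and was -0.40, not called, within JL1024. HSPA8, the constitutive HSP70 and a snoRNA host, was lower as a gene sum (-1.15, edgeR adjusted p = 0.0102).

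Targets of NRF2, the oxidative stress factor, had 2 of 10 3'UTR sums called higher, near the 23.9% of all 3'UTR sums: the thioredoxin reductase TXNRD1 (1.26, edgeR adjusted p = 0.00263) and GCLM (1.24, edgeR adjusted p = 0.00397), a subunit of the enzyme that starts glutathione synthesis. TXNRD1 had medians of 5.58 and 33.2 CPM and was higher in 7 of 7 strata. NFE2L2, which encodes NRF2 itself, was not called (0.27). The integrated stress response list had 2 of 7, near the 23.9% of all, PPP1R15B (1.01) and CEBPB (1.45). These calls were lost in 2 and 5 of the fits without 1 library, and 0 were left with TMM. ATF3, a stress-induced transcription factor, was covered almost wholly in introns, with 1014 of its 1019 tags: 0 to 62.1 CPM in mock (median 47.9) and 56.9 to 176 CPM in arsenite inputs (median 96.5), higher in 7 of 7 strata, with a log2 difference of 0.70 (edgeR adjusted p = 0.0424) that was lost in 13 of those fits.

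Cholesterol and lipid synthesis genes had 4 of 18 intron sums called higher and 0 lower, against 0.542% of all intron sums called higher. Of 17 3'UTR sums 4 were called higher and 0 lower, near the 23.9% of all 3'UTR sums. HMGCS1, which makes HMG-CoA for sterol synthesis, had an intron sum of 21.7 to 79.7 CPM in mock (median 53.8) and 22.1 to 212 CPM in arsenite inputs (median 129). The arsenite values of JL0388 and JL0361 were 117 to 212 CPM and those of JL1024 were 22.1 to 32.6 CPM, inside the mock range. The log2 difference was 1.14 (edgeR adjusted p = 7.37e-05), and its 3'UTR sum differed by 0.91. Intron sums of SQLE (1.37) and INSIG1 (1.65) were also called higher, and lost their calls in 5 and 11 of the fits without 1 library. INSIG1 was -0.39, not called, within JL1024. The list's 4 intron calls became 1 scaled to tags in peaks, 2 with TMM and 1 without the libraries under 10000 tags, and its 4 3'UTR calls became 1 with TMM. The mock libraries of JL1024 were low for HMGCS1 as well, at 21.7 to 44.5 CPM.

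Some hepatocyte plasma protein genes were lower in introns. Of 12 tested intron sums, 3 were called lower and 0 higher, against 0.221% of all intron sums called lower, with a list median of -0.88 against -0.01 for all intron sums. The ALB (albumin) intron sum was 34.6, 10.7, 12, 33.1, 38.0 and 15.7 CPM in the 6 mock inputs that had tags and 0 in G3BP mock 1 and 4. No arsenite input exceeded 8.16 CPM, the value of 1 tag in NES arsenite 2, and the median was 2.47 CPM. The log2 difference was -2.98 (edgeR adjusted p = 6.13e-06; limma -1.57, adjusted 0.922), and the call held in each fit without 1 library. FGA, a fibrinogen chain, and AFP, alpha-fetoprotein, differed by -2.55 and -1.58 in introns. The FGA intron call was lost in 2 of the fits without 1 library, and that of AFP in 0. In the 3'UTR, ALB was -0.29 and FGA -0.50, neither called. AFP was 0.80 there (edgeR adjusted p = 0.0216), a call lost in 7 of the fits without 1 library, and APOB, apolipoprotein B, was 1.14 (edgeR adjusted p = 0.00912); with TMM the list had 0 3'UTR sums called higher. FGB, the beta chain of fibrinogen, was among the 7 3'UTR sums called lower (-0.98). The transcription factor HNF4A, which drives the hepatocyte programme, was higher in its 3'UTR in 7 of 7 strata, from a median of 13.9 to 58.6 CPM (1.43, edgeR adjusted p = 0.000784).

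Elsewhere in introns the RNA helicase DDX17 (-1.64, edgeR adjusted p = 1.33e-06) and the splicing factor RBM17 (-2.15, edgeR adjusted p = 0.0175) were called lower. RBM17 ranged from -2.98 to -1.29 over the fits without 1 library and lost its call without G3BP mock 2. The other 3'UTR sums called lower were NDUFB4 (-2.21), CACHD1 (-1.65), RPL23A (-1.31), KLC1 (-1.08), LENG8 (-1.06) and RPL13A (-0.99). When 1 library was left out, CACHD1 lost its call in 9 of 17 fits, FGB in 6, LENG8 in 5, KLC1 in 4 and RPL13A in 2. Nuclear transport genes had 5 of 18 3'UTR sums called higher and 0 lower, near the 23.9% of all, among them the importin KPNB1 (1.05) and the GTPase RAN (1.09). Their median was 0.52, and 0 calls were left with TMM. The 8 tested proteasome subunits, which degrade ubiquitinated proteins, had a median of 0.54.

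**Figure D4:**
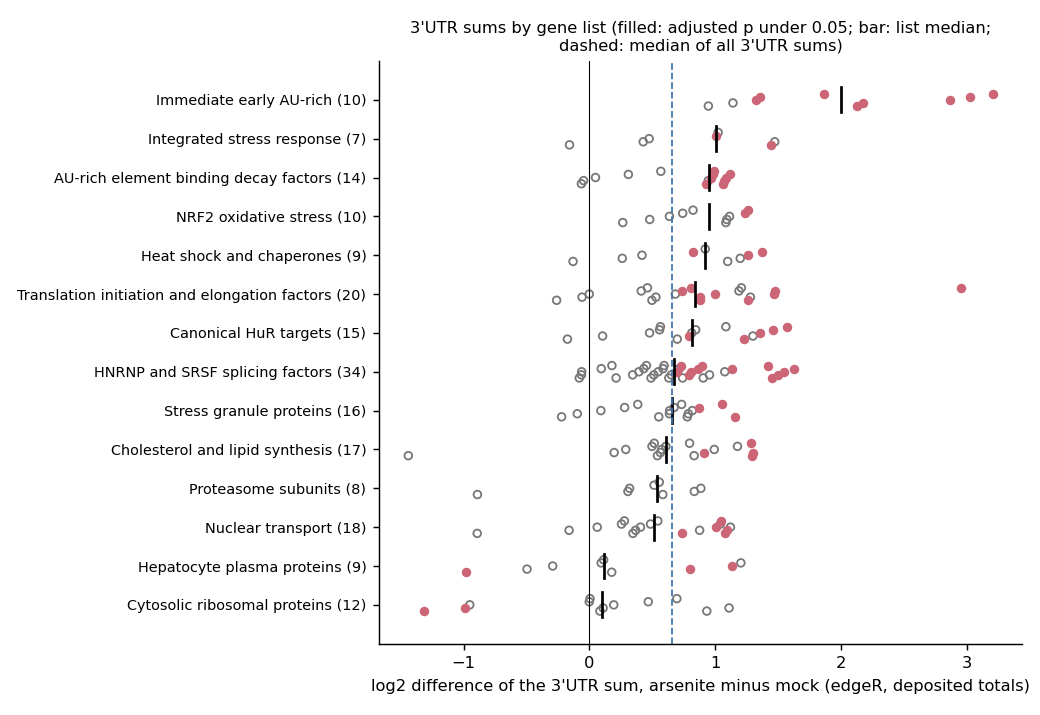
Log2 difference of the 3'UTR sum between arsenite and mock inputs (horizontal axis; edgeR with deposited totals) for each tested gene of the lists (rows, with the number tested). Filled points have an adjusted p under 0.05, black bars are list medians and the dashed line is the median of all 3803 3'UTR sums, 0.66; the immediate early list has a median of 2.00 and the ribosomal protein list 0.10.

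Ribosomal protein and snoRNA host genes were lower where whole-gene sums could be called. Of 44 tested cytosolic ribosomal protein genes, 8 gene sums were called lower by edgeR and 0 higher, against 0.910% of all gene sums called lower, with a median of -0.45 against 0.20 for all gene sums, and 3 were called lower and 0 higher within JL0388 alone (median -0.14). RPL3 differed by -1.58, RPS3A by -1.57, RPL23A by -1.19 and RPS12 by -1.10. Among lncRNAs that host snoRNAs, 4 of 8 were called lower and 0 higher: GAS5 (-0.94), SNHG1 (-0.85), SNHG5 (-1.04) and ZFAS1 (-0.96). With TMM 2 of the 8 were called lower, and within JL0388 3, where the list median was -0.30 against -0.87 over all sets. GAS5 was 135 and 90.6 CPM in NLS mock and arsenite of JL0388, and 1274 and 566 CPM in the NLS libraries of JL1024, so that the sets differed more than the treatments. It was lower in 6 of 7 strata, and the other stratum, NES of JL1024, had 579 CPM in mock and 693 CPM in arsenite. Many ribosomal protein genes host snoRNAs as well. Of 84 tested snoRNA peaks, 6 were called lower and 0 higher, and 0 had a positive difference (median -1.03). Of all 17091 peaks 0.216% were called lower and 61.9% were positive (median 0.24). Over the fits without 1 library 0 to 9 were called lower. Without NLS mock 2, the snoRNA-rich library, 12 were positive and 1 was called lower (median -0.63), and within JL0388 18 were positive and 0 called (median -0.47).

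Of the nuclear lncRNAs, 0 of 4 tested gene sums were called by edgeR over all sets, and 2 were called lower within JL0388. MALAT1 had 89.0 to 1689 CPM in mock (median 1285) and 528 to 1591 CPM in arsenite inputs (median 1246), with a log2 difference of -0.04 in edgeR (adjusted p = 0.964) and 0.22 in limma (adjusted p = 0.716). NEAT1 had medians of 84.8 and 87.8 CPM (-0.20, edgeR adjusted p = 0.634). NORAD, a cytoplasmic lncRNA that binds Pumilio proteins, was higher in 7 of 7 strata, 0 to 30.0 CPM in mock (median 14) and 12.9 to 76.7 CPM in arsenite inputs (median 49.7), by 1.38 (edgeR adjusted p = 0.000569).

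With 0 calls in limma, the gene sums and peaks of smallest unadjusted p in each direction are named as not called by it. Equal sign within each set was not required of them. H3-3B, a gene for histone H3.3, was the gene sum among them whose groups did not overlap: 0 to 2.40 CPM in mock (median 0) and 2.80 to 58.6 CPM in arsenite inputs (median 8.16), the highest value being 1 tag in G3BP arsenite 1. Its limma log2 difference was 2.75 (adjusted p = 0.248) and its edgeR difference 2.04 (adjusted p = 0.00573). ACTB had 89.0 to 688 CPM in mock (median 151) and 184 to 1501 CPM in arsenite inputs (median 469), overlapping, yet higher in 7 of 7 strata (limma 1.2, adjusted p = 0.248). The highest ACTB values of both groups were G3BP libraries of JL0361, 688 CPM in mock 2 and 1501 and 1145 CPM in arsenite 2 and 3. ANKRD1, a stress-responsive ankyrin repeat protein, had medians of 3.09 and 38.6 CPM and limma's difference was 3.07 (adjusted p = 0.248), against 1.16 in edgeR (adjusted p = 0.00878). SERTAD3 (2.10), TCP11L1 (1.65) and ETNK1 (2.19, but 0.53 in edgeR with an adjusted p of 0.138) completed the higher side, and ANKRD42-DT (-1.49), SORCS2 (-1.86), RNVU1-1 (-1.70), SNHG1 (-1.04), SNORD3C (-2.12) and ASF1B (-1.32) the lower side, with limma adjusted p-values of 0.248 to 0.517. The mock maximum of RNVU1-1 and ASF1B, 50.6 CPM, is the value of 1 tag in the shallow G3BP mock 1. The filter of 8 non-zero libraries counts both groups together. Sums on either side can thus enter mainly through the group where they are high.

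The peaks named by the same rule all had a limma adjusted p of 0.501. On the higher side, ANKRD1 (3'UTR, chr10:90912278-90912297, minus strand) had medians of 1.54 and 26.5 CPM, and NET1 (3'UTR, chr10:5457139-5457158, plus strand) had 0.763 and 19.1 CPM, both higher in 7 of 7 strata. APOB (coding sequence, chr2:21002370-21002389, minus strand) had 0 to 0.618 CPM in mock and 0 to 13.3 CPM in arsenite inputs. GMCL1 (3'UTR), ANKRD52 (3'UTR) and SPATS2 (intron) had limma differences of 1.59, 1.75 and 1.54. The APOB, GMCL1 and SPATS2 peaks had a tag in 1 of the 8 mock inputs each, so that they entered the test only through the arsenite libraries, which fixes their direction. The same holds for the TCP11L1 gene sum. The H3-3B gene sum and the ANKRD52 peak, with a tag in 3 of the 8 mock inputs, likewise met the filter of 8 libraries through the arsenite group. On the lower side were intron peaks of AFP (chr4:73445454-73445473, plus strand; medians 7.53 and 0.902 CPM), SORCS2 and GEN1, a 3'UTR peak of NFAT5, a snoRNA peak within RC3H2 and a peak of PKN2, with limma differences of -1.95 to -1.38. Since the filter counts both groups together, peaks on this side can enter mainly through the mock libraries, which favours their direction.

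No difference in response between the 3 lines was detected. For the line by arsenite interaction limma called 0 peaks and 0 gene sums, with 432 and 132 at an unadjusted p under 0.05, and edgeR called 0 of each, with 879 and 338. The 3'UTR excess was 10.3 points within the G3BP line, 6.73 within NLS and 4.98 within NES, where the G3BP line alone includes JL0361.

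Libraries of cytoplasmic and nuclear fractions (3 mock and 3 arsenite each, set JL0380) give another view of the arsenite treatment. They came from cells without the APEX reaction and from another set, so fractionation, the peroxide and the set cannot be told apart. In the nucleus 3'UTRs held 11.7% ± 0.54 (SD, n = 3) in mock and 19.2% ± 1.33 (SD, n = 3) in arsenite, 7.51 points higher, close in size to the 8.18 points of the inputs. In the cytoplasm it went the other way, from 42.3% ± 4.58 to 24.5% ± 0.94 (SD, n = 3 each). Intron shares were 53.9% and 47.3% in the nucleus and 30.5% and 43.7% in the cytoplasm. A comparison of 3 libraries with 3 cannot give an exact p below 0.10, and the difference between inputs and fractions was not tested.

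**Figure D5:**
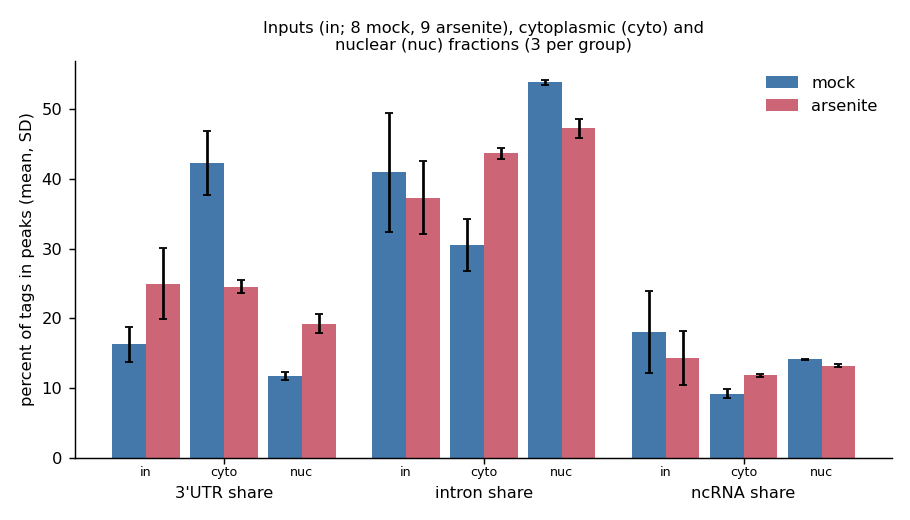
Mean percent of tags in peaks (vertical axis, from 0; bars are means, whiskers SD) in 3'UTR, intron and ncRNA peaks for inputs (8 mock, 9 arsenite) and for the cytoplasmic and nuclear fractions (3 per group), mock in blue and arsenite in red. The 3'UTR share is higher with arsenite in inputs (16.3% and 25%) and in the nucleus (11.7% and 19.2%), and lower in the cytoplasm (42.3% and 24.5%).

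Peaks called in the nucleus mostly had the same sign in the inputs. In the nucleus limma called 185 peaks higher (0.0924%) and 32 lower (0.0160%) of 200232. Of the 185, 163 were tested in the inputs and 157 (96.3%) had a positive edgeR difference there, with a median of 1.07. In 3'UTRs lay 136 of the 163, of which 134 were positive (median 1.09), against 4325 of all 5234 tested 3'UTR peaks (median 0.67). Of the 32, 24 were tested and 4 were positive. In the cytoplasm limma called 5321 higher (2.74%) and 1731 lower (0.893%) of 193897. Of those lower in the cytoplasm, 915 of the 1165 tested in the inputs (78.5%) were positive there, and of those higher 255 of 367 (69.5%), against 61.9% of all 17091 peaks tested in the inputs, so that both cytoplasmic groups lay above that share. The groups differ in class: 895 of the 1165 and 43 of the 367 lie in 3'UTRs. Among these 3'UTR peaks 731 of the 895 lower in the cytoplasm (median 0.54) and 39 of the 43 higher there (median 1.26) were positive in the inputs, against 4325 of all 5234 (median 0.67). In reverse, of the 239 peaks called higher in the inputs, 208 of 233 tested in the nucleus were positive and 95 of 237 tested in the cytoplasm. Of all peaks tested in the inputs, 56.8% of 16110 were positive in the nucleus and 49.6% of 16291 in the cytoplasm. Of the 37 called lower in the inputs, 5 of 37 were positive in the nucleus and 7 of 35 in the cytoplasm.

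Gene sums fell into several patterns across the compartments. JUND was higher in the nucleus (3.25, limma adjusted p = 3.41e-12) and in the cytoplasm (1.54, adjusted p = 4.16e-05), as were JUN (3.57 and 2.78) and DUSP1 (1.71 and 1.16). ACTB was higher in the nucleus (0.97, limma adjusted p = 5.46e-07) and lower in the cytoplasm (-1.2, adjusted p = 8.50e-05), and G3BP1 (0.74 and -1.06), HNF4A (0.93 and -1.04), HSPA1B (1.63 and -1.68), ATF3 (1.02 and -1.02) and RANBP1 (0.51 and -1.61) likewise. NORAD was higher in the nucleus (2.12) and not called in the cytoplasm (-0.32, limma adjusted p = 0.147). ALB was lower in both (-1.59 and -1.68), as were FGB (-1 and -1.91), GAS5 (-1.30 and -1.73), RPS12 (-2.15 and -2.97) and RPL7A (-1.60 and -2). The HSPH1 gene sum, called in the inputs by edgeR (2.75) but not by limma (1.70), was called by limma in neither fraction (0.03 and 0.55).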

How the data were processed

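HuR CLIP-seq was measured in 58 libraries, and the 17 inputs were analysed. The deposited table holds, per the file header, 1 signal per library and peak. The submitters' processing notes name Bowtie2, SAMtools, bedtools, HOMER and GRCh38.p14 without roles. The authors' signal values were whole multiples of what 1 tag is worth in counts per library total (CPM) for 100% of values (tolerance 0.1 tag), which gave tags and library totals. Of 395471 lines, 8257 repeated lines were dropped, leaving 387214 peaks, of which 84358 had no gene name. The 29 other per-sample columns were not used.

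Limma 3.58.1 (R 4.3.3) was fitted to log2(CPM + 1.31) with treatment, line and set, on features non-zero in at least 8 inputs, with Benjamini-Hochberg adjustment at 0.05. Its fold changes are on that scale, where the added constant shrinks differences between low values. The count test, edgeR 4.0.16 quasi-likelihood with deposited totals, was run on recovered tags, with TMM, tags in peaks and DESeq2 1.42.0 as alternatives. Sums of 3'UTR and intron peaks were added after the data had been seen. Shares were tested by exact permutation within strata with SciPy 1.17.1. The scripts for the fits and for the share test were tested on simulated data. Same-set replicates differed beyond counting error (chi-square per degree of freedom 1.56 to 2.90, permutation p = 0.001, the smallest that 999 tables allow) and were counted separately. Named peaks and gene sums were the 6 called with the largest difference per direction and equal sign in each set, open places going to the smallest unadjusted p. Of each list the 3 best covered tested members were also eligible, and other genes named were chosen after their values were seen. The members and lists were chosen with earlier results of these data known.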

Additional observations from a re-analysis of the deposited data

Results flagged for a closer look

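Within a line and treatment of 4 or 5 libraries, 1 library stood apart in 3 of the 26 groups of values examined, and chance alone sets about 1 group in 20 apart. G3BP arsenite had an unannotated share of 14.6% in 1 library. G3BP mock had a downstream share of 2.07% and a snoRNA share of 4.21% in 1 library each, the latter in G3BP mock 4, which held 1353 tags in peaks.

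In the cytoplasmic fraction the arsenite difference ran opposite to that in the inputs in every library or stratum for 4 measures, and the difference between them was not tested. The 3'UTR share differed by -17.8 points there, the ncRNA share by 2.64 points, the log2 ratio of 3'UTR to intron tags by -1.31, and the same ratio in genes with both kinds of peak by -1.32.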

How the results depend on the processing

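The 3'UTR share kept its direction under each alternative run, from 7.70 to 8.74 points when 1 library was left out. Unrestricted permutation gave 8.18 points (adjusted exact p = 0.0724) and a replicate block 7.81 points (adjusted exact p = 0.0781, the smallest that the pairs allow). The log2 ratio of 3'UTR to intron tags was 1.02 within JL0361 and 1.00 in genes with both. The intron share reversed as percent of the library total (0.134).

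Limma's 0 peaks became 276 with edgeR and deposited totals, 195 within JL0388, 1 within the G3BP line and 17 within NLS. Its 0 gene sums became 419 with edgeR and deposited totals, 179 with TMM, 18 with DESeq2, 399 with library weights, 11 within JL0361, 215 within JL0388, 1 within the G3BP line, 119 within NLS, and 0 to 3 without 1 library. The 276 edgeR peaks became 0 with TMM, 164 without libraries under 10000 tags, 0 with both, 148 within JL0388, 125 scaled to tags in peaks, and 12 to 403 without 1 library. The 419 edgeR gene sums became 179 with TMM, 228 with TMM and without libraries under 10000 tags, and 126 to 564 without 1 library. The 917 edgeR 3'UTR sums became 0 with limma, 272 with TMM, 11 within JL0361, 596 within JL0388, 0 within JL1024, and 385 to 979 without 1 library. The 38 intron sums became 0 with limma, 58 with TMM, 57 within JL0361, 98 within JL0388, 0 within JL1024, and 9 to 72 without 1 library. The causes were not tested.

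Single values that reversed were the transposable element share without libraries under 10000 tags (0.10) and as percent of the total (0.042), the unannotated share without 1 library (-0.982 to 0.00459, the latter without G3BP mock 4 or arsenite 5) and as percent of the total (0.232), against limma the gene sums of ALB (-0.79 within JL0388, -0.76 in edgeR scaled to tags in peaks), DDX17 (-0.53 within JL0388) and MALAT1 (-0.39 within JL0361), whose edgeR values are negative too, and against edgeR the 3'UTR sums of CACHD1 (3.29 within JL0361), HSP90AA1 (-0.40), IER2 (-1.70), LENG8 (0.47) and NUFIP2 (-0.11) within JL1024 and MCL1 (-0.33 within JL0361), and the INSIG1 intron sum (-0.39 within JL1024).

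Correlations of same-numbered deviations were -0.56 to -0.06 over peaks and -0.69 to 0.15 over gene sums. They cannot show whether replicate numbers pair the libraries, since the fit had already removed line and set. With the replicate block limma called 0 peaks and 0 gene sums, with 1560 and 649 at an unadjusted p under 0.05. Depth limits single values in the 3 shallow inputs, where 1 tag is 44.5 to 58.6 CPM; without them limma still called 0 peaks.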
